A study of Caenorhabditis elegans with 21 samples.

Results

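The response of F4+3 larvae to acute starvation was read from 6 of the 21 RNA sequencing libraries of the study, 3 of starved and 3 of fed first-stage (L1) larvae of *Caenorhabditis elegans*, a nematode. All were of the wild-type strain N2, and each library pooled about 10000 whole animals. F4+3 larvae are the great-grandchildren of the last of 5 successive generations that had each been starved for 6 days as L1 larvae, and the 2 generations in between had food. Starved F4+3 larvae came from eggs placed on plates without food and were collected 18 hours after the eggs were prepared by bleaching. Fed F4+3 larvae came from eggs placed on plates with food and were collected after 14 hours. Food and the hour of collection therefore cannot be told apart. Control L1 larvae, starved and fed in the same 2 ways (3 libraries each), differed from F4+3 larvae in ancestors that had always been fed. The unit throughout is the normalized count, that is, reads of a gene divided by a factor for its library, and ± gives the SD of 3 libraries. The table had 23185 rows: 15902 genes averaged at least 10 normalized counts over the 12 L1 libraries and were tested, 7282 fell below this minimum, and 1 row (*nhl-3*) was left out because its cells were shifted to the wrong columns. The genes just inside the minimum were *C33D9.10* (10.01) and *Y53F4B.5* (10.01), and those just outside were *sru-38* (9.996) and *T24D1.6* (9.99).

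Larvae of *C. elegans* that hatch without food stop at the L1 stage and can wait there for weeks, whereas larvae that hatch on bacteria feed, grow, divide their blast cells and prepare the first molt. Insulin-like peptides, the receptor DAF-2 and the transcription factor DAF-16/FoxO couple food to this choice: with little insulin signal DAF-16 enters nuclei and turns on genes for stress resistance and for the use of stored fat. The energy sensor AMPK, the growth kinase TOR and lysosomal and mitochondrial fat breakdown act beside it in fasting worms. The roles given with the genes below are background of this kind and are not results of these libraries.

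Most genes tested differed between starved and fed F4+3 larvae. By limma (adjusted p under 0.1), 4313 of 15902 genes (27.1%) were higher and 4833 (30.4%) were lower in starved F4+3 larvae, and 1700 (10.7%) were higher and 1838 (11.6%) lower by at least 2-fold. At least 8-fold differences were found for 113 genes that rose and 109 genes that fell. The values of the starved and fed libraries did not overlap for 9434 genes (59.3%), beside the 27.1% and 30.4% past the test in either direction. The counts of the gene lists below are to be read beside these shares of all genes, 27.1% higher and 30.4% lower. The median log2 fold change of all genes was 0.02. The balance of higher and lower genes rested on the scaling: 47.2% of the calls were higher as deposited, 64.3% with upper-quartile factors (6315 higher, 3513 lower) and 65.4% after scaling to total reads (6386 higher, 3378 lower), which moved the median of all genes to 0.26 and 0.28. Directions below are given relative to the deposited scaling, and a gene that differs by less than about 0.26 can change sign with these scalings.

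Reads counted numbered 25209530 to 44853563 in the starved and 40019863 to 53482585 in the fed F4+3 libraries. Replicate 1 of the starved larvae had the fewest reads and lay apart from replicates 2 and 3 on the second principal component (11.2% of the variance); the first (73.2%) separated starved from fed libraries. Without that library 4052 genes were higher and 4684 lower, and the counts without it are given for some of the lists that moved. The 10 genes with the most reads took 8.23 to 8.98% of reads in starved and 6.99 to 7.53% in fed libraries. Libraries of a group differed by more than counting noise, since the lowest chi-square per gene between replicates was 24.4, where 1 is sampling noise.

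The genes that rose most, by the rule given under the processing, were *cyp-37B1*, *lipl-3*, *F49H6.5*, *cpt-3* and *pud-4*. *cyp-37B1*, a cytochrome P450 gene, had normalized counts of 988, 984 and 894 in starved libraries, against 19.7, 17 and 9.97 in fed libraries (log2 fold change 5.90, SE 0.50, adjusted p = 2.07e-07). *lipl-3*, which encodes a lysosomal lipase known to be induced by fasting, had normalized counts of 333, 278 and 333 in starved libraries, against 10.9, 4.47 and 7.48 in fed libraries (log2 fold change 5.26, SE 0.32, adjusted p = 9.67e-09). *cpt-3*, a carnitine palmitoyltransferase gene, had normalized counts of 221, 205 and 202 in starved libraries, against 3.28, 8.05 and 5.82 in fed libraries (log2 fold change 5.03, SE 0.33, adjusted p = 2.07e-08). In all 3 cases the fed libraries held under 20 normalized counts, and every starved library was far above them. *F49H6.5* had 157 ± 40.1 in starved and 4.5 ± 5.41 in fed larvae (log2 fold change 5.26, adjusted p = 1.99e-06), and *pud-4*, named for proteins that are raised in *daf-2* mutants, had 493 ± 130.2 in starved and 17.9 ± 7.3 in fed larvae (log2 fold change 4.76, adjusted p = 4e-07). The largest falls were those of *Y48E1B.8*, *col-149*, *Y54G2A.76*, *dpy-7* and *dao-2*. *col-149*, a cuticle collagen gene, had normalized counts of 145, 80.6 and 75.5 in starved libraries, against 8061, 7356 and 13862 in fed libraries (log2 fold change -6.59, SE 0.39, adjusted p = 8.12e-09). *dpy-7*, whose collagen forms the furrows of the cuticle, had normalized counts of 23.1, 22.8 and 11.2 in starved libraries, against 801, 571 and 1015 in fed libraries (log2 fold change -5.34, SE 0.38, adjusted p = 3.99e-08). Both collagens were low in all 3 starved libraries and far higher in every fed one. *Y48E1B.8* had 6.35 ± 4.0 in starved and 1129.6 ± 80.9 in fed larvae (log2 fold change -7.43, adjusted p = 1.93e-09), *dao-2* had 41.5 ± 26.3 in starved and 1378 ± 364 in fed larvae (log2 fold change -5.29, adjusted p = 2.77e-07) and *Y54G2A.76* had 1.6 ± 1.63 in starved and 149 ± 48.8 in fed larvae. The log2 fold change of *Y54G2A.76*, -6.03 (adjusted p = 7.94e-07), depends on the added count of 1, since its starved libraries were near 0.

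Markers of all larval tissues on the lists were measured, as whole larvae would give. Of 12 neuron markers, 8 were higher and 0 lower in starved larvae (median log2 fold change 0.40), with summed normalized counts of 115208 to 135555 in starved and 88146 to 93438 in fed libraries. Of 9 muscle markers 3 were higher (1 without starved replicate 1) and of 6 pharynx markers 3 were higher, with none lower in either list; with upper-quartile factors these were 7 and 5. *egl-21*, a carboxypeptidase gene of neuropeptide processing, was higher by 0.68 on the log2 scale (adjusted p = 0.000202), and *myo-1*, a pharyngeal myosin gene, by 0.65 (adjusted p = 0.000648). Of 14 intestine markers 4 were higher and 7 lower (median -0.46): the gut esterase gene *ges-1* had 3679 ± 237 in starved and 1323 ± 169 in fed larvae (log2 fold change 1.48, adjusted p = 5.12e-08), and the peptide transporter gene *pept-1* had 5201 ± 463 in starved and 14104 ± 1589.7 in fed larvae (log2 fold change -1.44, adjusted p = 1.04e-07). Epidermis markers had 1 higher and 5 lower of 7 (median -0.63; 1 and 3 with upper-quartile factors), and their sums were 136569 to 151747 in starved and 153581 to 162613 in fed libraries. Germ cell markers had 2 higher and 1 lower of 10 (0 lower with upper-quartile factors), and 7 did not pass (median -0.14). Their sums overlapped, with 2200 to 2699 in starved and 2560 to 2693 in fed libraries. *nos-1*, a Nanos gene of primordial germ cells, rose (0.91, adjusted p = 0.00153), and *glh-1* was the lower gene. Of 38 early embryo genes, 25 were below the minimum, 3 of the other 13 were higher and 0 lower, and the sum of all 38 was 9472 to 11579 in starved and 6208 to 8090 in fed libraries. Of these, *sdz-8*, named as a target of the embryonic factor SKN-1, rose by 1.76 on the log2 scale (adjusted p = 3.69e-07). Of 15 yolk and sperm genes of adults, 10 were below the minimum and the sum of all 15 was 173 to 252 in starved and 158 to 218 in fed libraries. In whole animals, fewer cells of a type and less RNA per cell cannot be told apart.

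**Figure D1:**
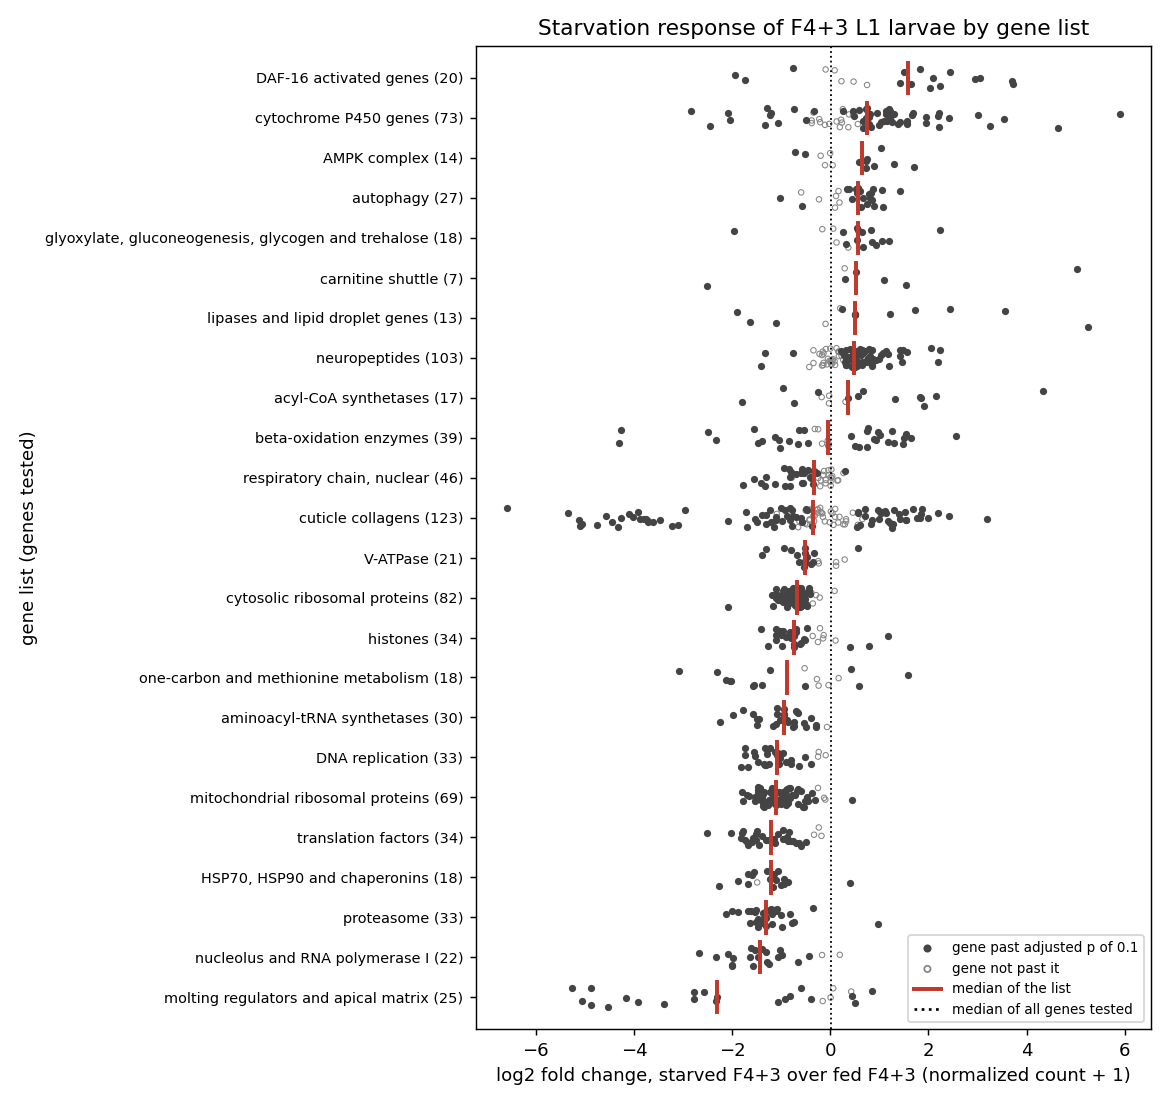
Log2 fold change of starved over fed F4+3 larvae (horizontal axis) for each gene of 24 lists (rows, number of genes tested in brackets); filled points passed an adjusted p of 0.1, open points did not, red bars are the medians of the lists and the dotted line is the median of all genes, 0.02. Lists of growth and molting lie to the left, with a median of -2.30 for molting genes, and DAF-16 activated genes lie furthest to the right, with a median of 1.58.

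Within the insulin pathway, the receptor gene, the kinase genes *pdk-1*, *akt-1* and *akt-2* and *daf-16* were higher in starved F4+3 larvae; *pdk-1* (0.74, adjusted p = 3.68e-05) and *akt-1* (0.60, adjusted p = 0.00251) were named after their values were seen. Of 16 genes, 7 were higher, 3 lower and 6 did not pass, against 27.1% and 30.4% of all genes; the median was 0.04. With upper-quartile factors or total reads 10 were higher and 1 lower. *daf-2*, the insulin/IGF-1 receptor gene, had normalized counts of 16217, 16849 and 16459.5 in starved libraries, against 8839, 8756 and 7965 in fed libraries (log2 fold change 0.96, SE 0.09, adjusted p = 7.73e-07). *daf-16*, the FoxO transcription factor gene, had normalized counts of 11043, 9714 and 11737 in starved libraries, against 7765, 7073 and 6629 in fed libraries (log2 fold change 0.60, SE 0.13, adjusted p = 0.00131). For both genes every starved library lay above every fed library. The protein kinase gene *akt-2* rose by 1.20 (adjusted p = 6.11e-05), *hcf-1*, whose product restrains DAF-16, fell by 0.69 (adjusted p = 1.68e-05), and *par-5*, a 14-3-3 gene, fell by 0.35 (adjusted p = 0.0152), all on the log2 scale; the call of *par-5* was lost with upper-quartile factors (-0.11) and total reads (-0.09). The insulin-like peptides went both ways, with 6 of 26 tested higher, 7 lower and 11 further genes, *ins-7* among them, below the minimum. Their shares, 23.1% and 26.9%, were near those of all genes. With upper-quartile factors 10 were higher and 5 lower. *daf-28*, a peptide that activates DAF-2 and is made in sensory neurons of fed animals, had normalized counts of 2325, 1668 and 1417 in starved libraries, against 4331, 5532 and 8425 in fed libraries (log2 fold change -1.73, SE 0.27, adjusted p = 7.83e-05). *ins-27* fell with it (1024 ± 378 in starved and 3199 ± 733 in fed larvae; log2 fold change -1.68, adjusted p = 2.3e-05), whereas *ins-24* rose by 1.01 (adjusted p = 9.67e-06) and *ins-35* by 0.67 (adjusted p = 0.00656).

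Known targets of DAF-16 were mostly higher. Of 20 known targets that DAF-16 turns on, 12 were higher (60%, all of them at least 2-fold), 3 lower and 5 did not pass, with a median of 1.58 against 0.02 for all genes. *nnt-1*, a mitochondrial transhydrogenase gene, had normalized counts of 2395, 2387 and 2411 in starved libraries, against 216, 259 and 106 in fed libraries (log2 fold change 3.72, SE 0.32, adjusted p = 2.49e-07). *hsp-12.3*, a small heat shock protein gene, had normalized counts of 140.4, 184 and 267 in starved libraries, against 9.85, 19.7 and 13.3 in fed libraries (log2 fold change 3.70, SE 0.35, adjusted p = 5.1e-07). *mtl-1*, a metallothionein gene, had normalized counts of 1239, 1119 and 876 in starved libraries, against 229, 274 and 283 in fed libraries (log2 fold change 2.03, SE 0.20, adjusted p = 6.56e-07). In each of the 3 genes the lowest starved library was at least 3 times the highest fed library. *sod-3*, the mitochondrial superoxide dismutase gene that is the usual reporter of DAF-16, did not pass: it had normalized counts of 55.5, 34.2 and 47.4 in starved libraries, against 26.3, 28.6 and 24.1 in fed libraries (log2 fold change 0.75, SE 0.60, adjusted p = 0.32), and it passed when only the 6 F4+3 libraries were fitted (adjusted p = 0.0531). *ftn-1*, a ferritin gene, did not pass either, with 182 ± 52.1 in starved and 128 ± 22.6 in fed larvae (log2 fold change 0.48, SE 0.24, adjusted p = 0.115); its call was gained without starved replicate 1 (0.69, adjusted p = 0.0313), without fed replicate 2 (0.61, adjusted p = 0.0835) and under several other settings. The 3 lower members were *mtl-2* (454 ± 56.2 in starved and 1737 ± 235 in fed larvae; log2 fold change -1.93, adjusted p = 1.91e-07), also an intestine marker, the lysozyme gene *lys-7* (688 ± 243 in starved and 2186 ± 64.7 in fed larvae; log2 fold change -1.74, adjusted p = 1.62e-05) and *ftn-2*, a ferritin gene named after its values were seen (-0.77, adjusted p = 0.000771). Of 8 tested genes on the list of those kept low when DAF-16 is active, 5 were lower and 2 higher. *dod-19* fell by 2.01 (adjusted p = 1.69e-05) and *dod-24* fell by 1.44 (adjusted p = 4.27e-06), while the higher pair, *gcy-18* (0.75, adjusted p = 1.09e-05) and *gcy-6* (0.64, adjusted p = 0.0146), encode guanylyl cyclases of sensory neurons.

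More AMPK genes were higher than lower, and most TOR genes did not pass. Of 14 AMPK genes 8 were higher (57.1%) and 2 lower (14.3%), beside 27.1% and 30.4% of all genes. Their median was 0.65, and 1 was lower with total reads. *aak-1* and *aak-2* encode the catalytic subunits: *aak-1* had normalized counts of 785, 786 and 811 in starved libraries, against 455, 374 and 346 in fed libraries (log2 fold change 1.03, SE 0.13, adjusted p = 6.76e-06). The other subunit gene, *aak-2*, had normalized counts of 11168, 11637 and 9507 in starved libraries, against 6937, 7534 and 5204 in fed libraries (log2 fold change 0.73, SE 0.14, adjusted p = 0.000606). Neither gene had a starved library within the range of the fed libraries. The γ subunit gene *aakg-4* rose by 1.70 (adjusted p = 3.7e-07), and *par-4*, the LKB1 kinase that activates AMPK, fell by 0.72 (adjusted p = 6.36e-05). Among 9 TOR genes 2 were higher, 2 lower and 5 did not pass (4 higher and 1 lower with upper-quartile factors). These shares, 22.2% each, were below the 27.1% and 30.4% of all genes. The TOR kinase gene *let-363* had normalized counts of 10238, 10305 and 10878 in starved libraries, against 11288, 10175 and 9263 in fed libraries, values that overlap (log2 fold change 0.04, SE 0.10, adjusted p = 0.782); without fed replicate 3 its sign turned (-0.03, adjusted p = 0.829), and it was called higher with upper-quartile factors (0.28) and total reads (0.30). The Rag GTPase gene *ragc-1*, which passes the amino acid signal to TOR, fell by 0.69 (adjusted p = 0.000102), and *rheb-1*, a TOR activator, rose by 0.44 (adjusted p = 0.0168). Of 18 transcriptional regulators of fasting and stress, 8 were higher (44.4%) and 1 lower (5.56%). These counts were 6 and 3 without starved replicate 1, and 13 and 1 with total reads. *hlh-30*, the TFEB factor of lysosome and autophagy genes, had 31196 ± 3286 in starved and 25455 ± 2363 in fed larvae (log2 fold change 0.29, SE 0.12, adjusted p = 0.062), a call that was lost without fed replicate 1 (0.21, adjusted p = 0.221) or starved replicate 1 (0.21, adjusted p = 0.205). *mxl-3*, a repressor of lysosomal lipase genes in fed worms, fell by 1.15 (adjusted p = 0.00335), with normalized counts of 8426, 3113 and 4284 in starved libraries, against 9414, 12150.2 and 10704 in fed libraries. *nhr-49*, a nuclear receptor of fat breakdown, did not pass (log2 fold change 0.24, SE 0.15, adjusted p = 0.206); it passed without starved replicate 3 (0.36, adjusted p = 0.0772) and with upper-quartile (0.48) or total-read scaling (0.50). The Mediator subunit gene *mdt-15*, a partner of NHR-49, rose by 0.78 (adjusted p = 0.000131).

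**Figure D2:**
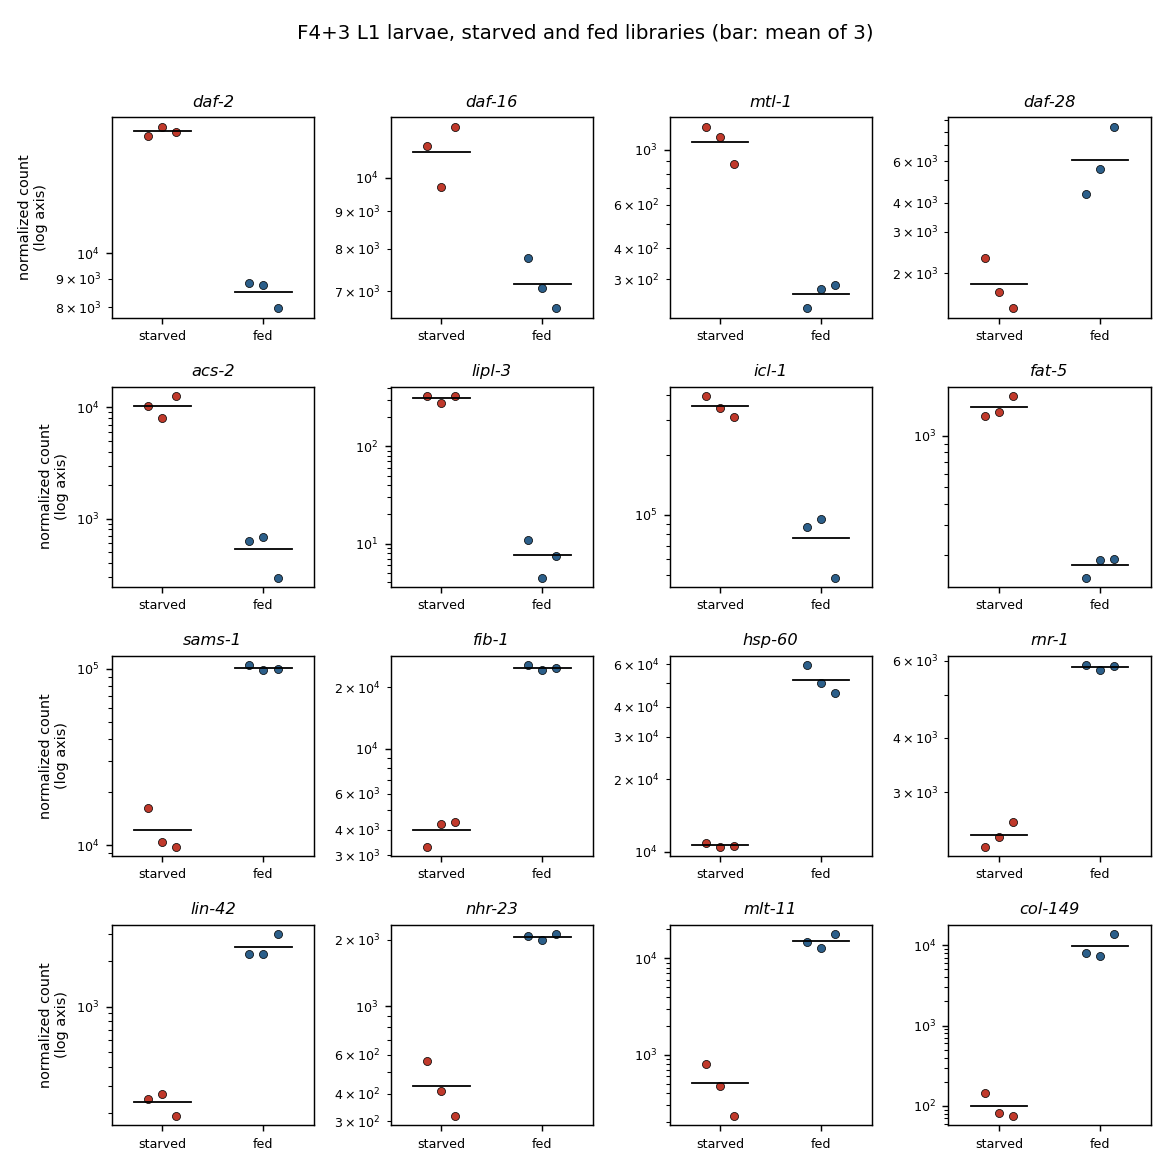
Normalized count (log axis, a scale of its own in each panel) of 16 genes in the 3 starved (left) and 3 fed (right) libraries of F4+3 larvae; bars are means. The starved libraries lie above the fed ones for *daf-2*, *daf-16*, *mtl-1*, *acs-2*, *lipl-3*, *icl-1* and *fat-5* and below them for the other 9 genes, with no overlap in any panel.

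Fat mobilisation genes held some of the strongest rises. Of 13 tested lipase and lipid droplet genes, 8 were higher and 3 lower (median 0.50). Beside *lipl-3*, the lysosomal lipase gene *lipl-2* had normalized counts of 1699, 1260.2 and 1398 in starved libraries, against 275, 339 and 202 in fed libraries (log2 fold change 2.43, SE 0.28, adjusted p = 4.12e-06). A lipase gene linked to long life in worms, *lipl-4*, had normalized counts of 10.8, 45.6 and 28.9 in starved libraries, against 0, 4.47 and 0.831 in fed libraries (log2 fold change 3.56, SE 0.66, adjusted p = 0.000375). The starved libraries of both genes lay above the fed ones, although *lipl-4* was near 0 in the fed libraries. *fil-1*, a fasting-induced lipase gene, had normalized counts of 134, 147 and 191 in starved libraries, against 68.9, 70.7 and 59 in fed libraries (log2 fold change 1.22, SE 0.21, adjusted p = 0.000197). Against this direction, the hydrolase gene *abhd-3.2* had normalized counts of 520.0, 436 and 638 in starved libraries, against 1549.7, 1502 and 1854 in fed libraries (log2 fold change -1.63, SE 0.15, adjusted p = 3.81e-07), and *lipl-6* fell by 1.90 (adjusted p = 5.68e-05). Acyl-CoA synthetases, which activate fatty acids, had 9 higher and 4 lower of 17 (median 0.37). *acs-2*, the mitochondrial synthetase that fasting is known to induce, had normalized counts of 10230.0, 7952 and 12745 in starved libraries, against 631, 678 and 295 in fed libraries (log2 fold change 4.33, SE 0.41, adjusted p = 5.1e-07). *acs-11* rose by 2.15 (adjusted p = 6.76e-09). *acs-1*, which serves the synthesis of branched-chain fatty acids, fell by 1.80 (adjusted p = 3.95e-08), and *acs-5* fell by 0.96 (adjusted p = 1.94e-06).

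The carnitine shuttle carries fatty acids into mitochondria, and 5 of its 7 genes were higher and 1 lower (4 and 1 without starved replicate 1). *cpt-1*, a carnitine palmitoyltransferase of the outer step, had normalized counts of 11867, 14081 and 13759 in starved libraries, against 6492, 6884 and 5259 in fed libraries (log2 fold change 1.10, SE 0.13, adjusted p = 4.33e-06). *cpt-5* had normalized counts of 5343, 3349 and 2448 in starved libraries, against 1408, 1523 and 807 in fed libraries (log2 fold change 1.55, SE 0.27, adjusted p = 0.000174). *dif-1*, the carrier of the inner membrane, had normalized counts of 2037, 1639 and 1792 in starved libraries, against 1314, 1308 and 1154 in fed libraries (log2 fold change 0.53, SE 0.12, adjusted p = 0.00163). In these 3 genes no starved library reached down to a fed one. *cpt-4* went the other way, with normalized counts of 176, 162 and 172 in starved libraries, against 1109.7, 1034 and 807 in fed libraries (log2 fold change -2.51, SE 0.17, adjusted p = 3.12e-08). The β-oxidation enzymes split, with 18 of 39 tested higher, 15 lower and 6 that did not pass, and a median of -0.04 that turned to 0.18 with upper-quartile factors and 0.20 with total reads. The highest were the peroxisomal acyl-CoA oxidase genes *acox-1.6* (2025 ± 575 in starved and 332 ± 25.9 in fed larvae; log2 fold change 2.57, adjusted p = 4.2e-08) and *acox-3* (3034 ± 519 in starved and 959 ± 92.4 in fed larvae; log2 fold change 1.65, adjusted p = 7.47e-08). The lowest were *acdh-2*, an acyl-CoA dehydrogenase gene (42 ± 18.6 in starved and 799 ± 167 in fed larvae; log2 fold change -4.30, adjusted p = 1.38e-08), and *acox-1.2* (235 ± 61.1 in starved and 4485 ± 826 in fed larvae; log2 fold change -4.27, adjusted p = 3.28e-09). Some members that fell serve other substrates than stored fat: *ivd-1* (leucine breakdown, -1.39) and *acdh-1* and *ech-6* (propionate shunt, -2.34 and -1.46) had adjusted p of 3.18e-07, 2.74e-08 and 4.83e-07. The peroxisomal genes *maoc-1*, *dhs-28* and *daf-22*, whose enzymes also shorten the chains of ascaroside pheromones, had log2 fold changes of 1.5, 0.94 and 0.78 (adjusted p = 9.73e-07, 2.87e-05 and 0.000862). These 6 genes were named after their values were seen. The peroxisomal genes did not all rise, since the acyl-CoA oxidase gene *acox-1.2* had a log2 fold change of -4.27.

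Of the 5 lipid genes that the study picked on these L1 libraries, 3 were higher and 2 lower in starved than in fed F4+3 larvae; the list is therefore not independent of the data. *dhs-6*, which encodes a dehydrogenase of the short-chain family, had normalized counts of 3972, 3258 and 2841 in starved libraries, against 1326, 1171 and 935 in fed libraries (log2 fold change 1.55, SE 0.15, adjusted p = 8.63e-07). *B0272.4*, whose product resembles enoyl-CoA isomerases, had normalized counts of 1423, 1176 and 1169 in starved libraries, against 534, 556 and 482 in fed libraries (log2 fold change 1.26, SE 0.13, adjusted p = 1.42e-06). *dif-1* and *abhd-3.2* are given above. *C31H2.4* had normalized counts of 401, 371 and 379 in starved libraries, against 700.4, 714 and 657 in fed libraries (log2 fold change -0.84, SE 0.11, adjusted p = 1.94e-05). For each of the 5 genes the starved and fed libraries did not overlap.

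Fatty acid synthesis showed opposite changes at different steps. Of 16 tested synthesis and desaturation genes, 6 were higher and 8 lower (4 and 7 without starved replicate 1). *fat-5*, a desaturase of palmitic acid, had normalized counts of 1318, 1373 and 1723 in starved libraries, against 148, 188 and 190.3 in fed libraries (log2 fold change 3.06, SE 0.17, adjusted p = 6.42e-09). *fat-4*, a desaturase of the polyunsaturated path, rose by 0.99 (adjusted p = 0.000151). The 2 lowest that the rule named encode elongases. Of these, *elo-2* had normalized counts of 2527, 2152 and 2622 in starved libraries, against 15361, 13330.2 and 14693 in fed libraries (log2 fold change -2.57, SE 0.12, adjusted p = 1.92e-09). The other, *elo-5*, of branched-chain fatty acids, had 1813 ± 458 in starved and 9408 ± 846 in fed larvae (log2 fold change -2.41, adjusted p = 3.73e-08). Lipid-binding proteins had 2 higher and 7 lower of 9 (2 and 4 with upper-quartile factors). *lbp-1*, a secreted fatty acid binding protein gene, had normalized counts of 5428, 6898 and 7285 in starved libraries, against 698, 771 and 698 in fed libraries (log2 fold change 3.17, SE 0.12, adjusted p = 2.89e-10), and every starved library was more than 7 times every fed one. *lbp-4* fell by 2.00 (adjusted p = 1.31e-06).

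The enzymes that turn fat into sugar, and those of storage sugars, were higher together. Of 18 tested genes of the glyoxylate cycle, gluconeogenesis, glycogen and trehalose, 13 were higher (72.2%) and 1 lower. *icl-1*, the bifunctional enzyme of the glyoxylate cycle, had normalized counts of 396049, 344018 and 311023 in starved libraries, against 86739.5, 94951 and 48438 in fed libraries (log2 fold change 2.24, SE 0.23, adjusted p = 1.42e-06). *pyc-1*, pyruvate carboxylase, had 31147 ± 1444 in starved and 13964 ± 3614 in fed larvae (log2 fold change 1.19, adjusted p = 9.83e-05). The phosphoenolpyruvate carboxykinase genes *pck-1* and *pck-2*, at the entry to gluconeogenesis, rose by 0.93 (adjusted p = 3.82e-05) and 0.54 (adjusted p = 0.0113). The only lower gene of the 18, *gpdh-1*, makes glycerol under osmotic stress and had normalized counts of 105, 135 and 128 in starved libraries, against 399, 517 and 520.3 in fed libraries (log2 fold change -1.95, SE 0.21, adjusted p = 2.18e-06). Of 19 glycolysis genes 10 were higher and 2 lower, all by less than 2-fold (13 and 1 with upper-quartile factors); the glyceraldehyde phosphate dehydrogenase gene *gpd-3* rose by 0.68 (adjusted p = 0.00103), and lactate dehydrogenase, *ldh-1*, fell by 0.53 (adjusted p = 0.00457). One-carbon and methionine metabolism fell, with 10 of 18 lower and 3 higher (2 without starved replicate 1, 5 with total reads) and a median of -0.88. *sams-1*, which makes the methyl donor S-adenosylmethionine, had normalized counts of 16143, 10443 and 9799.8 in starved libraries, against 105053, 98418 and 99075 in fed libraries (log2 fold change -3.09, SE 0.18, adjusted p = 8.12e-09). *metr-1*, methionine synthase, had normalized counts of 2749.6, 2629 and 2961 in starved libraries, against 15485, 13232 and 12633 in fed libraries (log2 fold change -2.31, SE 0.19, adjusted p = 1.22e-07). The fed libraries of both were at least 4 times the starved ones. The asparagine synthetase gene *asns-2* rose by 1.58 (adjusted p = 1.89e-06).

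Mitochondrial respiration genes had a less negative median than the lists of growth described below. Of 46 nuclear genes of the respiratory chain, 24 were lower, 1 higher and 21 did not pass (median -0.34); with total reads 17 were lower and 11 higher. The lowest, *cox-11* (338 ± 25.3 in starved and 1168 ± 121 in fed larvae; log2 fold change -1.78, adjusted p = 3.63e-08) and *cox-19* (log2 fold change -1.56, adjusted p = 6.47e-06), assemble cytochrome c oxidase rather than form part of it. Of 12 genes of the mitochondrial genome 2 were lower and 0 higher (median -0.11), and none passed with upper-quartile factors, where the median was 0.13. Their share of reads was 0.79 to 0.88% in starved and 0.63 to 0.88% in fed libraries.

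Autophagy, by which cells digest their own parts, had 19 of 27 genes higher (70.4%) and 2 lower, with a median of 0.56. *atg-2*, which feeds lipid to the growing autophagosome, had normalized counts of 17021, 19349 and 17804 in starved libraries, against 7509, 7649 and 5327 in fed libraries (log2 fold change 1.42, SE 0.14, adjusted p = 1.11e-06). A further autophagy gene, *atg-18*, had normalized counts of 12648, 9554 and 7931 in starved libraries, against 5409.6, 5369 and 3526 in fed libraries (log2 fold change 1.08, SE 0.20, adjusted p = 0.000403). The groups did not overlap in either gene. *atg-5* (-1.01, adjusted p = 0.000116) and *epg-3* (-0.58, adjusted p = 0.000178) were the lower pair. Lysosomal proteases went both ways, with 5 higher and 5 lower of 22 tested (8 and 4 with upper-quartile factors). At 22.7% each, both shares were below the 27.1% and 30.4% of all genes. Cathepsin Z, *cpz-1*, had 4819 ± 441 in starved and 1213 ± 229.7 in fed larvae (log2 fold change 2.00, adjusted p = 1.74e-06) and cathepsin L, *cpl-1*, rose by 1.14 (adjusted p = 5.31e-07), whereas *cpr-5*, a cathepsin B-like gene, fell by 1.23 (adjusted p = 7.94e-07). The vacuolar ATPase, which acidifies lysosomes and also the surface of gut and excretory cells, had 15 of 21 genes lower and 1 higher (median -0.51; 11 and 4 with upper-quartile factors), and *vha-3* fell by 1.38 (adjusted p = 1.14e-05) and *vha-10* fell by 1.31 (adjusted p = 5.85e-05).

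Genes for making ribosomes and protein were lower almost throughout. Of 22 genes of the nucleolus and RNA polymerase I, 20 were lower (90.9%) and 0 higher (median -1.44). *fib-1*, fibrillarin, which modifies ribosomal RNA, had normalized counts of 3304, 4252 and 4383 in starved libraries, against 25875, 24331 and 25009 in fed libraries (log2 fold change -2.67, SE 0.14, adjusted p = 4.1e-09), and *nol-16* fell by 2.32 (adjusted p = 1.62e-07). Of 82 tested cytosolic ribosomal proteins 77 were lower and 0 higher (median -0.68, range -2.08 to 0.09), or 70 without starved replicate 1 and 68 with total reads. *rpl-13* had normalized counts of 56072, 52971 and 48542 in starved libraries, against 107175, 121287 and 129148 in fed libraries (log2 fold change -1.18, SE 0.15, adjusted p = 8.14e-06). The farthest of the list, *rpl-41.1*, fell by 2.08 (adjusted p = 2.61e-07); a near-identical copy may share its reads. Translation factors had 31 of 34 lower and 0 higher (median -1.20). *inf-1*, the helicase eIF4A, had normalized counts of 17268, 11812 and 10899 in starved libraries, against 74243, 76836 and 73355 in fed libraries (log2 fold change -2.52, SE 0.17, adjusted p = 2.8e-08), and *eif-3.C* fell by 2.02 (adjusted p = 8.12e-07). Aminoacyl-tRNA synthetases had 29 of 30 tested lower and 0 higher (median -0.95; 26 without starved replicate 1), with *kars-1*, for lysine, at 2404 ± 222 in starved and 11384 ± 629 in fed larvae (log2 fold change -2.25, adjusted p = 4.1e-09). Mitochondrial ribosomal proteins had 65 of 69 lower and 1 higher (median -1.11). *mrpl-12* fell by 1.80 (adjusted p = 2.86e-07), and the 1 higher gene was *mrps-11* (0.44, adjusted p = 0.0172). The shares lower in these 5 lists, from 90.9 to 96.7%, stand beside 30.4% of all genes.

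Protein folding and turnover followed the same direction. Of 33 proteasome genes 32 were lower and 1 higher (median -1.31). *pas-4*, a subunit of the core ring, had normalized counts of 640.3, 506 and 482 in starved libraries, against 2295, 2211 and 2607 in fed libraries (log2 fold change -2.13, SE 0.12, adjusted p = 8.12e-09), and *pas-7* fell by 1.99 (adjusted p = 2.8e-08). The HSP70, HSP90 and chaperonin genes had 16 of 18 lower and 1 higher (median -1.20). *hsp-60*, the mitochondrial chaperonin, had normalized counts of 10917, 10494 and 10603 in starved libraries, against 59775, 50308 and 45525 in fed libraries (log2 fold change -2.27, SE 0.12, adjusted p = 4.1e-09), and *sti-1*, a co-chaperone of HSP90, fell by 1.88 (adjusted p = 1.86e-07). Small heat shock proteins, by contrast, had 4 higher and 4 lower of 12 (7 and 4 with upper-quartile factors). These shares, 33.3% each, were near the 27.1% and 30.4% of all genes. *hsp-12.3* rose, as given above, and so did *F08H9.3* (318 ± 45 in starved and 81.1 ± 12.2 in fed larvae; log2 fold change 1.96, adjusted p = 5.27e-07). The heat-inducible genes *hsp-16.2* and *hsp-16.41* were lower and varied widely among libraries. *hsp-16.2* had normalized counts of 341, 86.3 and 185 in starved libraries, against 1894, 602 and 716 in fed libraries (log2 fold change -2.40, SE 0.89, adjusted p = 0.0358), and its call was lost without fed replicate 1 (-1.89, adjusted p = 0.136) or starved replicate 2 (-1.89, adjusted p = 0.139). *hsp-16.41* had 163 ± 120.2 in starved and 775 ± 582 in fed larvae (log2 fold change -2.34, SE 0.96, adjusted p = 0.0536), and it too was lost without fed replicate 1 (-1.77, adjusted p = 0.191) or starved replicate 2 (-1.63, adjusted p = 0.216). Both belong to a family of near-identical copies.

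DNA replication and cell division were lower. Of 33 replication genes 30 were lower and 0 higher (median -1.09). *rnr-1*, the large subunit of ribonucleotide reductase, a usual marker of S phase in larvae, had normalized counts of 2251, 2364 and 2560.2 in starved libraries, against 5868, 5703 and 5835 in fed libraries (log2 fold change -1.28, SE 0.10, adjusted p = 1.1e-07). *mcm-2*, of the replicative helicase, had normalized counts of 1705, 1654 and 1558 in starved libraries, against 4745, 5615 and 7237 in fed libraries (log2 fold change -1.82, SE 0.13, adjusted p = 4.82e-08), and *mcm-7* fell by 1.74 (adjusted p = 1.99e-08). All fed libraries of the 3 genes were at least 2 times the starved ones. Cell cycle regulators had 15 of 23 lower and 3 higher (median -0.70; 13 and 6 with upper-quartile factors). *cdk-1*, the kinase of mitosis, fell by 1.52 (adjusted p = 1.65e-07) and the Aurora B kinase gene *air-2* fell by 1.49 (adjusted p = 1.54e-06). *cki-1*, a cyclin-dependent kinase inhibitor that halts divisions in arrested L1 larvae, had normalized counts of 211, 271 and 316 in starved libraries, against 194, 147 and 163 in fed libraries (log2 fold change 0.65, SE 0.20, adjusted p = 0.0126), with every starved library above every fed one. Histone genes had 25 of 34 tested lower and 3 higher. *his-40* fell by 1.42 (adjusted p = 1.41e-05), whereas *his-71*, which encodes the replication-independent variant H3.3, had 6392 ± 516 in starved and 2874 ± 668 in fed larvae (log2 fold change 1.18, adjusted p = 1.1e-05). Most histone genes occur in near-identical copies, so that reads may be shared among them.

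The molting program was the lowest list of all. Of 25 tested molting regulators and apical matrix genes, 18 were lower and 3 higher, with a median of -2.30 and 14 at least 2-fold lower (background 11.6%). *nhr-23*, the nuclear receptor that drives each molt, had normalized counts of 565, 412 and 317 in starved libraries, against 2089, 1990.5 and 2133 in fed libraries (log2 fold change -2.30, SE 0.18, adjusted p = 9.75e-08). *lin-42*, the Period homolog that oscillates with the molts, had normalized counts of 248, 265 and 192 in starved libraries, against 2195, 2198 and 2998 in fed libraries (log2 fold change -3.38, SE 0.16, adjusted p = 1.61e-09). Fed libraries exceeded starved ones in every comparison for both regulators. *mlt-11*, a protease inhibitor of the molt, had normalized counts of 810.1, 475 and 234 in starved libraries, against 14829, 12721 and 18007 in fed libraries (log2 fold change -5.07, SE 0.37, adjusted p = 4.64e-08). A lipocalin gene of the matrix laid down before the new cuticle, *lpr-3*, had normalized counts of 224, 139 and 65.9 in starved libraries, against 4631, 4246 and 6026 in fed libraries (log2 fold change -5.26, SE 0.39, adjusted p = 4.97e-08). In these 2 genes starved replicate 3 was the lowest of the starved libraries. The 3 higher members included *mlt-3* (0.85, adjusted p = 0.00999) and *lrp-1*, the megalin receptor that takes up sterols (0.51, adjusted p = 0.00982).

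Cuticle collagens ran in both directions, with 51 of 123 tested lower (41.5%) and 34 higher (27.6%). Their range was -6.59 to 3.2, and 46 further genes were below the minimum. The share higher was near the 27.1% of all genes, and the share lower stands beside 30.4%. *col-77* had normalized counts of 355, 466 and 593 in starved libraries, against 51.4, 51 and 45.7 in fed libraries (log2 fold change 3.2, SE 0.34, adjusted p = 1.94e-06), and *col-113* rose by 2.41 (adjusted p = 5.47e-06), in contrast to *col-149* and *dpy-7*. Cuticlins had 8 higher and 7 lower of 27 tested (13 and 4 with upper-quartile factors), with *cutl-9* at 23.6 ± 2.54 in starved and 142 ± 12.5 in fed larvae (log2 fold change -2.54, adjusted p = 1.84e-06) and *cut-2* higher by 0.84 (adjusted p = 0.00068). The cuticlin shares, 29.6% and 25.9%, were near the 27.1% and 30.4% of all genes. Hedgehog-related genes, many of which are active in the epidermis around a molt, had 18 lower (47.4%) and 7 higher (18.4%) of 38 tested. *wrt-10* had normalized counts of 94.1, 59.4 and 7.23 in starved libraries, against 1427, 1058 and 1712 in fed libraries (log2 fold change -5.25, SE 0.65, adjusted p = 7.6e-06). In the opposite direction, *grl-21* had normalized counts of 24876, 23421 and 22515 in starved libraries, against 2793, 3967 and 2638 in fed libraries (log2 fold change 2.94, SE 0.19, adjusted p = 1.66e-08). Patched-related genes had 10 higher (38.5%) and 5 lower (19.2%) of 26, from *ptr-10* (-3.69, adjusted p = 1.81e-06) to *ptr-13* (1.80, adjusted p = 3.37e-06). Among 9 heterochronic genes, which time larval stages, 4 were lower (44.4%) and 2 higher (22.2%), or 3 and 4 with upper-quartile factors. *hbl-1* was among the lower genes (-0.66, adjusted p = 0.000254). *lin-14*, which specifies the first stage, rose by 0.34 (adjusted p = 0.036), a call lost without starved replicate 3 (0.28, adjusted p = 0.117). Epidermis markers were lower as well (5 of 7, 3 with upper-quartile factors, median -0.63, *dpy-7* being one of them), and their part in these results was not tested. Collagen genes resemble one another, and how the authors counted reads with several matches is not given in the sources used here.

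Cytochrome P450 genes were mostly higher, and other detoxification genes went both ways. Of 73 tested cytochrome P450 genes 45 were higher (61.6%) and 12 lower (median 0.75). *cyp-32B1* had normalized counts of 870.2, 844 and 816 in starved libraries, against 35, 29.5 and 34.1 in fed libraries (log2 fold change 4.64, SE 0.23, adjusted p = 2.01e-09), and *cyp-35A5* fell by 2.84 (adjusted p = 2.02e-05). Glutathione transferases had 23 higher and 12 lower of 46 tested (median 0.40): *gst-30* had 273 ± 51 in starved and 25.3 ± 7.42 in fed larvae (log2 fold change 3.41, adjusted p = 3.29e-08), and *gst-20* fell by 2.19 (adjusted p = 1.34e-08). UDP-glucuronosyltransferases were even, with 28 higher and 24 lower of 66, from *ugt-63* (-3.86, adjusted p = 2.78e-07) to *ugt-18* (3.37, adjusted p = 1.25e-08). Lysozymes and antimicrobial peptides had 33 higher and 18 lower of 65 tested. *cnc-11*, a caenacin peptide gene, had normalized counts of 929, 1152 and 1463 in starved libraries, against 54.7, 109 and 73.1 in fed libraries (log2 fold change 3.92, SE 0.27, adjusted p = 3.25e-08). An invertebrate lysozyme gene, *ilys-5*, had normalized counts of 446, 459 and 887 in starved libraries, against 9393, 7405 and 8404 in fed libraries (log2 fold change -3.88, SE 0.24, adjusted p = 1.25e-08). The peptide rose and the lysozyme fell in all 3 libraries. C-type lectins, carbohydrate-binding proteins often induced by pathogens, had 36 higher and 40 lower of 117 tested, from *clec-180* (-2.37, adjusted p = 3.39e-05) to *clec-75* (3.39, adjusted p = 3.28e-06). These shares, 30.8% and 34.2%, were near the 27.1% and 30.4% of all genes. The sign of their median (-0.15) turned with upper-quartile factors (0.08) and without starved replicate 1 (0.03). Fed larvae had bacteria on their plates and starved larvae had none.

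Neuropeptide genes were mostly higher, and few were lower. Of 103 tested neuropeptide genes, 64 were higher (62.1%) and 3 lower (median 0.47; 5 lower without starved replicate 1). The highest were *nlp-30* (2831 ± 599 in starved and 597 ± 79.3 in fed larvae, log2 fold change 2.23, adjusted p = 1.23e-07) and *nlp-32* (597 ± 259 in starved and 124 ± 21.2 in fed larvae, log2 fold change 2.19, adjusted p = 3.33e-06). Both are counted among antimicrobial peptides of the epidermis rather than neuronal signals. The lowest were *nlp-36* (-1.41, adjusted p = 9.33e-07) and *nlp-40*, a peptide of the gut that paces defecation (3596 ± 163 in starved and 6082 ± 81.1 in fed larvae; log2 fold change -0.76, adjusted p = 4.81e-05). Of 1000 chemoreceptor genes 642 were below the minimum. Of the other 358, 126 were higher and 9 lower (115 and 6 without starved replicate 1, 173 and 5 with upper-quartile factors). Since a gene can pass the minimum through the group in which it is high, this count is a description only. *srw-86* had normalized counts of 531, 682 and 525 in starved libraries, against 90.8, 100.2 and 77.3 in fed libraries (log2 fold change 2.68, SE 0.16, adjusted p = 1.2e-08). Neuron markers were also higher (8 of 12, median 0.40), with summed normalized counts of 115208 to 135555 in starved and 88146 to 93438 in fed libraries, and their part in these results was not tested. Transthyretin-related genes had 22 higher and 4 lower of 47 tested (32 and 2 with total reads), with *ttr-44* at 5769 ± 569.6 in starved and 1112 ± 117 in fed larvae (log2 fold change 2.37, adjusted p = 4e-07). Nuclear hormone receptors had 102 higher and 27 lower of 224 tested (median 0.33): *nhr-185* had 86 ± 23.7 in starved and 16.3 ± 10.1 in fed larvae (log2 fold change 2.44, adjusted p = 6.52e-05), and *nhr-244* had 63.2 ± 30.3 in starved and 414 ± 134 in fed larvae (log2 fold change -2.75, adjusted p = 1.25e-05). Dauer genes of TGF-β and steroid signaling had 4 higher and 2 lower of 12, or 10 higher and 2 lower with upper-quartile factors or total reads; the receptor gene *daf-4* rose by 0.80 (adjusted p = 5.9e-06), and *daf-36*, an enzyme of dafachronic acid synthesis, fell by 1.19 (adjusted p = 4.55e-05).

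A part of the class 1 genes, that is, targets that rise when DAF-16 is active, was read in the larvae too. Class 1 comes from earlier published work. The names used are those of the study's enrichment table for fertile against sterile F4 adults, whose libraries are not those of the larvae. That table names only a part of the class, and 978 of its genes were in the L1 table. The counts below therefore hold for this part and not for class 1 as a whole. Of 935 genes tested, 517 were higher (55.3%) and 135 lower (14.4%) in starved F4+3 larvae, beside 27.1% and 30.4% of all genes, with a median of 0.40 (634 higher and 86 lower with upper-quartile factors, 491 and 142 without starved replicate 1). In control larvae 490 were higher and 150 lower (median 0.37). The outermost members were *F17B5.1* (421 ± 60.7 in starved and 14.9 ± 2.29 in fed larvae; log2 fold change 4.73, adjusted p = 6.6e-08), with *cpt-3* above it, and the collagen gene *dpy-3* (30.7 ± 7.84 in starved and 543 ± 120.0 in fed larvae; log2 fold change -4.11, adjusted p = 3.52e-08).

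Whether ancestry altered the response to starvation was asked by the difference between the F4+3 and the control effect of starvation, in 1 fit. No gene passed: 0 of 15902 (0%) had an adjusted p under 0.1 by limma, the smallest being 0.335, and 636 genes (4%) had an unadjusted p under 0.05. edgeR called 0 and DESeq2 17 genes on recovered reads. In control larvae 4391 genes (27.6%) were higher and 4846 (30.5%) lower with starvation. Of the F4+3 calls 84.0% passed in the same direction in control larvae, and of the control calls 83.2% did so in F4+3 larvae: 3397 genes were higher in both and 4288 lower in both, while 6 were higher in F4+3 and lower in control larvae and 2 the reverse. Across the 15902 genes, which are not independent, the F4+3 and control log2 fold changes had a Pearson r of 0.916. The molting list had medians of -2.30 in F4+3 and -2.13 in control larvae, the cytosolic ribosomal proteins -0.68 and -0.75, autophagy 0.56 and 0.29 and DAF-16 activated genes 1.58 and 1.17.

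**Figure D3:**
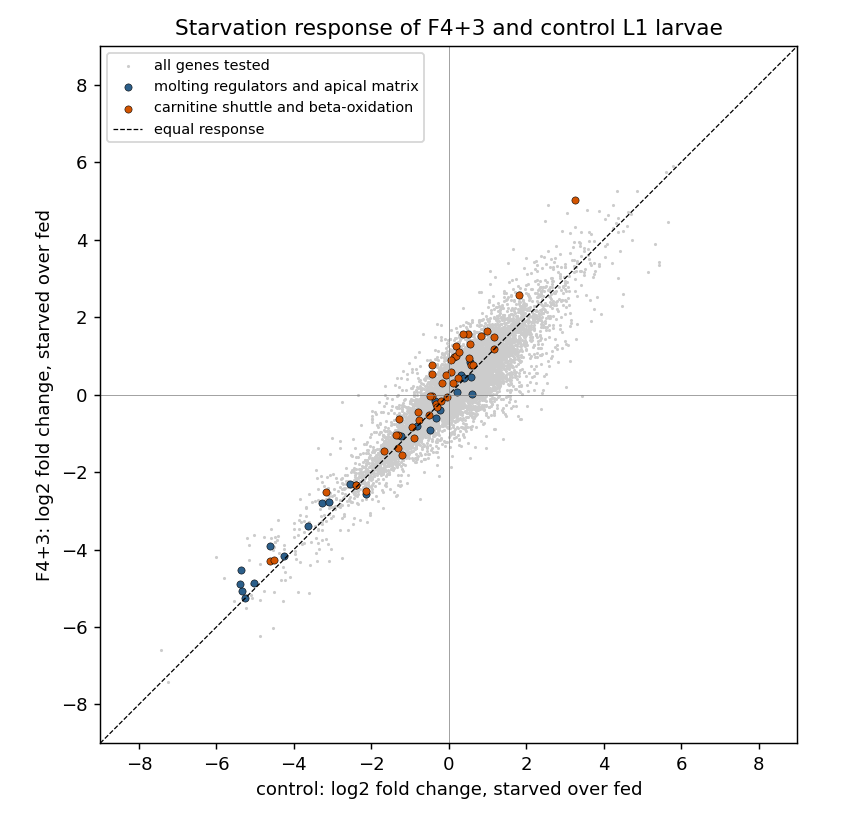
Log2 fold change of starved over fed larvae in F4+3 (vertical axis) against control larvae (horizontal axis) for the 15902 genes tested (grey), with molting genes in blue and genes of the carnitine shuttle and β-oxidation in orange; on the dashed line both responses are equal. Molting genes lie near the line, and 7 of 7 carnitine shuttle and 32 of 39 β-oxidation genes lie above it, although no single difference passed the test.

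Among the 58 lists, the share of genes with a log2 fold change above (more positive than) that of control larvae at an unadjusted p under 0.05 was highest for the carnitine shuttle, followed by the 5 lipid genes picked on these libraries and by β-oxidation, while no gene passed limma after adjustment. All 7 carnitine shuttle genes had a higher log2 fold change in F4+3 than in control larvae, 6 of them with an unadjusted p under 0.05, and so had 32 of 39 β-oxidation genes, 15 of them with such a p. Over all genes 398 (2.5%) had it in this direction and 238 (1.5%) in the other. This ranking is not independent of these data, since the lists were chosen with earlier results of these data known. In the carnitine list, *dif-1* is also among the 5 lipid genes picked on these libraries. Control fed replicate 1 had 0.33% of reads from the mitochondrial genome, against 0.93% and 0.80% in control fed replicates 2 and 3. With that library left out, limma called 0 genes for the difference. With both lines side by side, *dif-1* had 1823 ± 201 in starved and 1259 ± 91 in fed F4+3 larvae, and 1276 ± 61.9 in starved and 1726 ± 219 in fed control larvae (difference 0.96, SE 0.17, adjusted p = 0.335). *dif-1* was higher with starvation in F4+3 larvae and lower in control larvae (-0.43, adjusted p = 0.0073). *dhs-6* had 3357 ± 572 in starved and 1144 ± 197 in fed F4+3 larvae, and 2213 ± 212 in starved and 1725 ± 239 in fed control larvae (difference 1.19, SE 0.22, adjusted p = 0.357). The gene *B0272.4* had 1256 ± 144 in starved and 524 ± 38.2 in fed F4+3 larvae, and 862 ± 117 in starved and 749 ± 73.8 in fed control larvae (difference 1.06, SE 0.18, adjusted p = 0.335). Likewise, *cpt-1* had 13236 ± 1196 in starved and 6212 ± 848 in fed F4+3 larvae, and 14464 ± 1589.7 in starved and 12076 ± 1118 in fed control larvae (difference 0.84, SE 0.18, adjusted p = 0.403). For the last 3 genes fed F4+3 libraries were the lowest of the 4 groups. The acyl-CoA dehydrogenase genes *acdh-7*, *acdh-10* and *acdh-12* and the hydratase-like gene *ech-4*, named after their values were seen, had log2 fold changes of 1.01, 1.30, 0.96 and 0.90 in F4+3 larvae and of 0.17, 0.55, 0.14 and 0.05 in control larvae, with adjusted p of the differences of 0.374, 0.858, 0.621 and 0.364. These 8 genes were among the 17 that DESeq2 called, with adjusted p of 0.0016 to 0.099. *gpdh-1*, also called by DESeq2, fell by 1.95 in F4+3 and fell by 3.43 in control larvae (limma adjusted p of the difference 0.379). Leaving out single control libraries brought calls: without control fed replicate 3, limma called 6 genes, *acdh-7*, *B0272.4*, *dhs-6*, *dif-1*, *ech-4* and *far-3* (a fatty acid and retinol binding protein gene, with 2.91 in F4+3 and 1.56 in control larvae), with an adjusted p of 0.0996 each. Without control starved replicate 2 it called 3 others, *F25H2.15*, *F56C9.12* and *T27A3.9* (0.0693, 0.0693 and 0.056). These 3 went the other way, with a lower log2 fold change in F4+3 than in control larvae (differences -1.66, -1.66 and -1.56). For *sod-3* the log2 fold change was larger in control larvae, with 0.75 in F4+3 and 2.58 in control larvae (difference -1.83, SE 0.85, adjusted p = 1). Its fed control libraries were near 0, with normalized counts of 19.8, 8.79 and 0.972, the last being the value of 1 read. The control value therefore depends on the added count of 1. The starved means were 45.7 in F4+3 and 43.5 in control larvae.

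**Figure D4:**
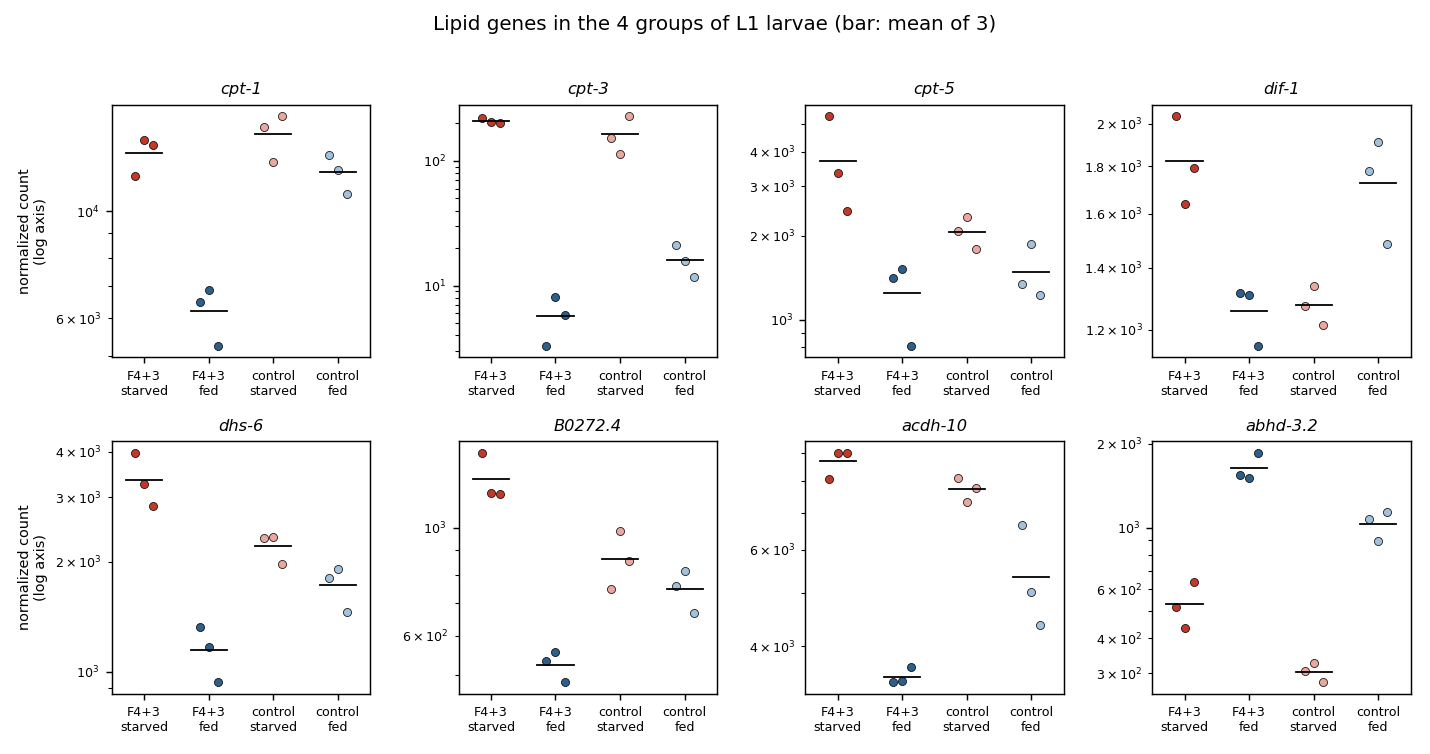
Normalized count (log axis, a scale of its own in each panel) of 8 lipid genes in the 3 libraries of starved F4+3, fed F4+3, starved control and fed control larvae; bars are means. Starved F4+3 libraries lie above fed F4+3 libraries in 7 panels and below them for *abhd-3.2*, and for *dif-1* the control libraries run the other way.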

How the data were processed

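RNA of whole L1 larvae was sequenced (75-base reads, about 10000 animals per library). Per the study's methods, Subread alignment to WS220 and counting by featureCounts came first, and DESeq2 was used for differential expression; versions, strand and treatment of reads with several matches are not given in the sources used here. The deposited values are a signal on a linear scale, called normalized counts by the authors; that these are reads divided by 1 factor per library is inferred from their steps (below). The deposited table also holds the authors' fold changes and p-values, which were not used. The study describes the 3 libraries of a group as independent biological replicates. Rows were taken by gene name, because 58 WormBase identifiers were shared by 2 rows.

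Values were tested as log2(normalized count + 1) with limma 3.58.1 (R 4.3.3, empirical Bayes with trend) in 1 fit of all 12 L1 libraries, which share 1 estimate of the spread, for genes with a mean of at least 10. P-values were adjusted by Benjamini-Hochberg over 15902 genes, two-sided, with a threshold of 0.1. Fold changes are on this log2 scale, which understates those of low genes, and SE is that of the fitted log2 fold change. Dividing each library by its smallest step gave whole reads for 100% of values (within 0.1 of a whole number), and edgeR 4.0.16 (quasi-likelihood) and DESeq2 1.42.0 were run on these reads as alternatives. The pipeline was tested on simulated data.

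The gene lists and the genes to name were chosen with earlier results of these data known. Named were a fixed set, the 5 highest and 5 lowest called genes and up to 2 in each direction per list, with a mean of at least 50 and no overlap between groups; others are marked as chosen after their values were seen. Alternatives covered the added count, the minimum, the scaling, the tool, a replicate block, the threshold and each library left out; the scaling to total reads, edgeR with the block and the counts per list were added after seeing the data.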

Additional observations from a re-analysis of the deposited data

How the results depend on the processing

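Reads limit low genes most, and a difference of less than about 0.26 (log2) can change sign with the scaling. Of 4028 recomputed fold changes of single genes, 42 lost the call, 14 gained it and 1 turned sign, that of *let-363*, which was -0.0337 without fed replicate 3 (adjusted p = 0.829) and -0.0337 to 0.109 over the libraries left out. At an adjusted p under 0.01, 2536 genes were higher and 3535 lower, and with at least 2-fold 1700 and 1838. With 1 F4+3 library left out, 3712 to 4052 genes were higher and 4390 to 4684 lower. For the difference between F4+3 and control larvae, leaving out 1 library gave 0 to 6 calls and DESeq2 gave 17, against 0; the cause was not tested. The replicate numbers gave no consistent pairing of the samples. Deviations of starved and fed F4+3 libraries with the same number had correlations of -0.0961, 0.155 and -0.0141. Over the 6 pairs of L1 groups 8 of 18 same-number correlations were over 0.1 (-0.161 to 0.174, beside -0.274 to 0.199 for other numbers), with no pair of groups in which all 3 were. The paper states that eggs of both lines were harvested together for the final experiments, and a weak shared effect of the replicate was not tested. With the replicate block 4377 genes were higher and 4870 lower, and 1 gene (*dhs-6*, adjusted p = 0.0304) differed between F4+3 and control larvae, also with edgeR and the block (1 gene, adjusted p = 0.0396). Without the filter 4610 genes were higher and 4801 lower, and edgeR gave 4669 and 4647. Of 754 recomputed list results 142 moved from the main result, and 9 list medians changed sign with a size of at least 0.1.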
